A study of Homo sapiens with 66 samples.

Results

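The response of THP-1 cells to etoposide was described across all genes, by setting 3 etoposide libraries against 3 untreated libraries of the same cell line. These 6 libraries were taken by their sample labels from a series of 66 libraries, in which 11 cell lines of acute myeloid leukaemia (AML) were each left untreated or given etoposide. THP-1 is an established human line of monocytic AML that carries the KMT2A-MLLT3 fusion. The untreated group received medium alone for 24 hours and the other group 1.01 µM etoposide for 24 hours, the concentration that the study took as the IC50 of this line. Cells of 3 wells were pooled for each RNA, and 1 cell line, 1 concentration and 1 time stand for the response. The methods of the study speak of biological replicates unless stated otherwise. The labels do not name separate cultures for these libraries, and p-values measure the spread between these libraries, which may be technical.

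Etoposide traps topoisomerase II on DNA after it has cut both strands, and the trapped breaks activate the kinases ATM, ATR and DNA-PK. These kinases can switch on the p53 pathway, whose target genes act in cell cycle arrest and death and include CDKN1A, MDM2 and BAX. Damaged or stressed cells can also turn on the integrated stress response, in which ATF4 drives genes for amino acid supply and for the stress factors DDIT3, ATF3 and TRIB3. Monocytic cells can also answer DNA damage with NF-kB and interferon programmes, and differentiation of leukaemic monoblasts raises surface and granule proteins such as CD14 and S100A9.

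Each library held between 19383975 and 22064262 reads on genes, and levels are given as CPM, read counts scaled to the normalized library size within THP-1. A gene without a read in a whole group may have had up to 0.0508 CPM untreated or 0.047 CPM after etoposide, at 3 reads over the group and for counting error only. Etoposide replicate 2 stood apart from the other etoposide libraries by base composition. Against them, its median log2 deviation was -0.335 over the genes in the lowest tertile of GC content and 0.417 over those in the highest, whereas no untreated library departed by more than 0.0865 in either tertile. The part of this deviation in each result was not tested. A printed list count that moved by more than 1.5 times when 1 library was left out is given both ways. With etoposide replicate 2 left out, 23.1% of all genes tested passed the test as higher and 21.8% as lower, and the counts given without that library are to be read against these shares. Reads on the mitochondrial genome made up 3.59% to 3.86% of the untreated and 4.09% to 4.58% of the etoposide libraries.

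**Figure D1:**
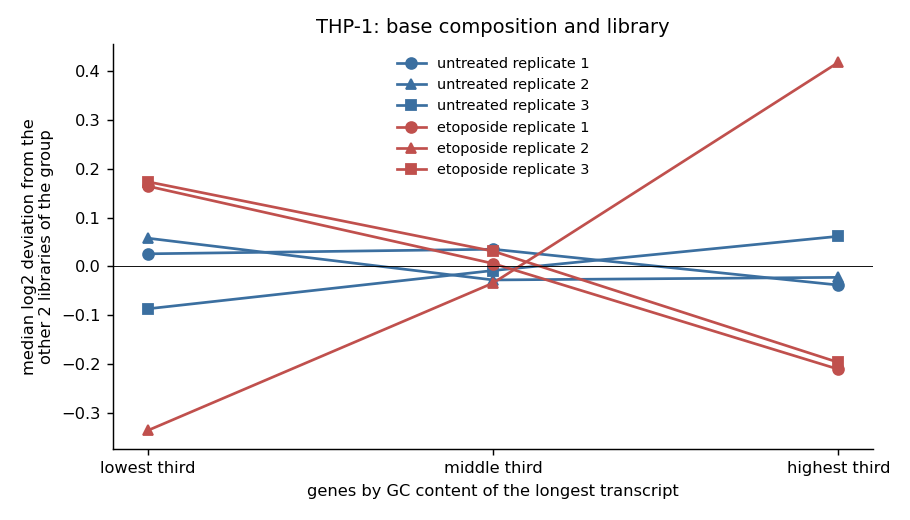
The vertical axis is the median log2 deviation of each THP-1 library from the other libraries of its group, over 10005 protein coding genes split on the horizontal axis into tertiles of GC content. Each line is 1 library, and etoposide replicate 2 runs from -0.335 to 0.417 while the untreated libraries stay within 0.0865 of 0.

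The label of a monocytic line was met by the markers. Of 12 monocytic markers, 11 were expressed well enough to be tested, and their summed level ran from 1636 to 1803 CPM untreated and from 2493 to 2653 CPM after etoposide. FCN1 had no read in any library, and CD68 stayed below 1 CPM. Granulocytic markers, which monoblasts share in part, summed to 1118 to 1357 CPM untreated and 703 to 1150 CPM after etoposide. Erythroid markers summed to at most 0.104 CPM in any library, and megakaryocytic markers to at most 10.8 CPM. In bulk RNA, fewer cells of a type and less RNA per cell cannot be told apart, here and in all results that follow.

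Etoposide changed the expression of a large number of THP-1 genes. Among 14789 genes tested with the quasi-likelihood test of edgeR, 2379 (16.1%) were higher and 2367 (16.0%) were lower at a Benjamini-Hochberg false discovery rate (FDR) below 0.05. When a change of more than 2-fold was required as well, the directions were uneven, and 943 genes were called induced (6.38%) and 511 repressed (3.46%). The etoposide and untreated libraries did not overlap in 6801 genes (46.0%), among them 937 of the induced and 502 of the repressed genes. The gene types differed between the directions: 838 of the induced genes were protein coding and 69 were long non-coding RNAs, against 219 and 205 of the repressed genes. Of the 14789 genes tested, 12364 were protein coding and 1509 were long non-coding RNAs. Many calls concerned genes of low expression, since 413 induced genes were under 1 CPM before etoposide and 261 repressed genes were under 1 CPM after it. Below, "rose" and "fell" mean an FDR below 0.05 in that direction, and a fold change is given as log2 of etoposide over untreated. Counts of list members that rose or fell are to be read against the 16.1% and 16.0% of all genes tested. Beyond 2-fold the shares are 6.38% and 3.46%.

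**Figure D2:**
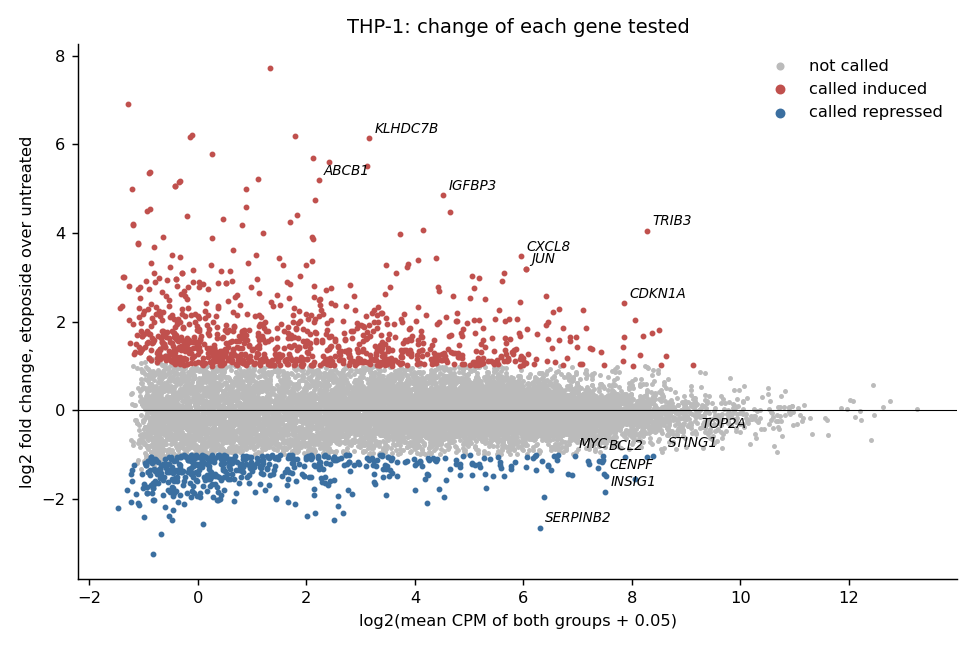
Each point is 1 of 14772 tested genes, with the log2 of its mean CPM over both groups plus 0.05 on the horizontal axis and its log2 fold change of etoposide over untreated on the vertical axis, and red and blue mark the called genes; XIST and genes of the Y chromosome are not drawn. Among the called coding genes of at least 5 CPM, the induced ones reach a log2 fold change of 6.14 (KLHDC7B) and the repressed ones -2.66 (SERPINB2).

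Among called coding genes that averaged 5 CPM or more, the largest induction was that of KLHDC7B, which encodes a kelch-domain protein. It stood at 0.105, 0.258 and 0.363 CPM in the untreated libraries and at 15.3, 25.3 and 11.8 CPM in the etoposide libraries, a log2 fold change of 6.14 (SE 0.37, FDR 1.17e-09). S100P, a calcium-binding protein, and INHBE, a subunit of the activin family, followed with log2 fold changes of 5.61 and 5.51. IGFBP3, which binds insulin-like growth factors, went from 1.26, 1.44 and 1.87 CPM to 35.8, 49.2 and 47.6 CPM (4.85, SE 0.20, FDR 2.39e-11). The T-box transcription factor EOMES, usually studied in lymphocytes, rose from 2.200, 1.803 and 2.02 CPM to 28.4, 38.6 and 33.5 CPM (4.06). For each of these genes every etoposide library lay far above every untreated one. The other genes of the top 15 were ATF3, TRIB3, CHAC1, CXCL8, PCDH12, PHLDA1, NUPR1, RND3, IL23A and JUN, with log2 fold changes between 3.19 and 4.48.

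The largest repression was that of SERPINB2, which encodes plasminogen activator inhibitor 2. SERPINB2 stood at 122, 174 and 111 CPM untreated and at 19.3, 18.3 and 27.1 CPM after etoposide (-2.66, SE 0.18, FDR 6.26e-09), so that the groups were far apart although the untreated libraries themselves varied. INSIG1, which holds back sterol synthesis and is itself a target of the sterol factor SREBP, was nearly the same in each etoposide library, at 79.9, 79.6 and 79.3 CPM, after 247, 332 and 274 CPM untreated (-1.84, SE 0.13, FDR 8.53e-09). The other 13 of the 15 largest repressions were IGSF10, SERPINI2, PNCK, PIF1, FADS2, CAV1, ALDOC, ZDHHC11B, CACNA2D3, TBC1D30, RFX8, ARTN and NIM1K, between -2.47 and -1.57. They include the DNA helicase PIF1, the fatty acid desaturase FADS2, the membrane scaffold CAV1 and the glycolytic enzyme ALDOC. ZDHHC11B has a near-identical neighbour copy, so its reads may be shared.

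**Figure D3:**
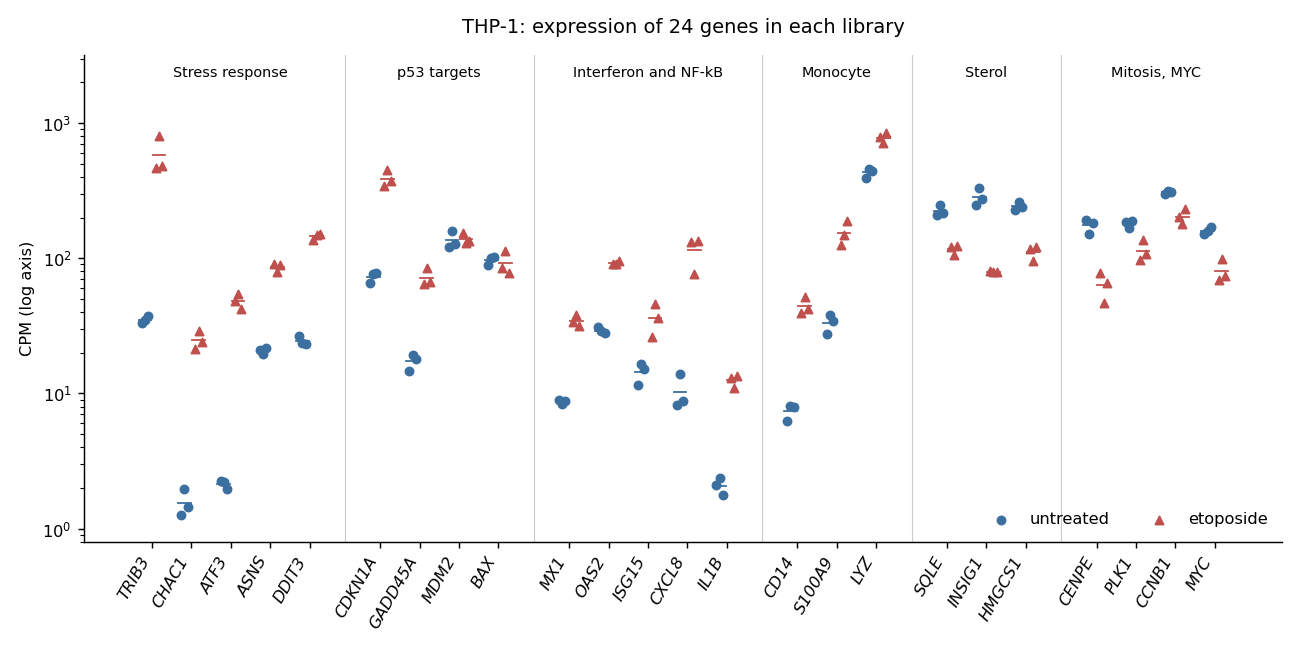
The vertical axis is expression in CPM on a log scale for 24 genes, grouped by role along the horizontal axis, with circles for the 3 untreated and triangles for the 3 etoposide libraries and short lines for group means. MDM2 and BAX overlap between the groups, whereas the stress, interferon, monocyte, sterol and mitotic genes drawn do not.

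The integrated stress response had the highest median of the 27 lists drawn by member. The list had 22 members, all tested, and 20 rose, 17 of them more than 2-fold, against 16.1% and 6.38% of all genes tested. VLDLR fell (-0.51, FDR 0.00348), and ATF4 itself did not pass the test, at 355, 393 and 387 CPM untreated and 349, 447 and 413 CPM after etoposide (0.09, FDR 0.603). The ATF4 protein is mainly set by translation, which RNA counts do not show. The median log2 fold change of the list was 1.93, beside -0.034 over all genes tested.

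The binding motif of ATF4 with its C/EBP partners, searched as TTNCATCA on both strands of the 250 bases before the RefSeq start, was found in 2 of the 19 members with a listed promoter, ASNS and CHAC1, and in 150 of 10109 promoters of tested coding genes (1.48%). Both carriers rose, and the stretches around the matches are shown because they are established response elements of this pathway. ASNS lies on the minus strand (GRCh38.p14, chr7:97872439-97872506, bases 98 to 31 before the start) and CHAC1 on the plus strand (chr15:40953232-40953299, bases 239 to 172), both written 5′ to 3′ in the direction of the gene with the match in capitals.
ASNS: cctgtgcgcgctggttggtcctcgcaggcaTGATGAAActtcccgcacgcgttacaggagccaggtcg
CHAC1: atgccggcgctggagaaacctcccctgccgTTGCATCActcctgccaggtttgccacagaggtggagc

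CHAC1, an enzyme that breaks down glutathione, stood at 1.26, 1.96 and 1.45 CPM untreated and 21.4, 28.7 and 24.1 CPM after etoposide (3.98, SE 0.20, FDR 1.49e-10). ASNS, which makes asparagine, went from 20.9, 19.6 and 21.9 CPM to 90.2, 78.8 and 88.8 CPM (2.05, SE 0.13, FDR 2.12e-09). Both genes were higher in each etoposide library than in any untreated one, and the 2 groups of ASNS were each narrow.

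TRIB3, a pseudokinase that restrains AKT and ATF4, was the most abundant of the strongly induced stress genes, at 33.4, 34.7 and 37.3 CPM untreated and 463, 802 and 484 CPM after etoposide (4.05, SE 0.19, FDR 6.39e-11). ATF3, a repressor that ATF4 induces, rose from 2.25, 2.22 and 1.97 CPM to 47.9, 53.96 and 41.9 CPM (4.48, SE 0.17). DDIT3, which encodes the death-promoting factor CHOP, rose from 26.5, 23.6 and 23.3 CPM to 137, 148 and 152 CPM (2.57, SE 0.13). TRIB3 was highest in etoposide replicate 2, and none of the 3 genes overlapped between the groups. The cytokine GDF15 (4.74) and the hormone STC2 (4.40) changed the most in the list but began below 1 CPM. Enzymes and transporters of amino acid supply rose as well, with CTH at 2.82, PSAT1 at 1.86, PHGDH at 1.30, SHMT2 at 0.71, the transporter chains SLC3A2 at 1.81, SLC7A11 at 1.56 and SLC7A5 at 1.38, and the tRNA synthetases WARS1 at 2.03 and SARS1 at 0.76. PPP1R15A, the phosphatase subunit that ends the response, rose by 1.74 on the log2 scale. The count of 20 held with each library left out in turn.

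Targets of p53 moved in part. Of 26 listed targets, a list taken from an earlier analysis of these data, 25 were tested. 14 rose, 6 of them more than 2-fold, and none fell, beside 16.1%, 6.38% and 16.0% of all genes tested. The list median was 0.55. CDKN1A, the inhibitor of cyclin-dependent kinases, stood at 65.1, 75.9 and 77.6 CPM untreated and 345, 448 and 374 CPM after etoposide (2.42, SE 0.13, FDR 5.08e-10). SESN2 (2.76), GADD45A (2.05), the death receptor TNFRSF10B (2.01), BTG2 (1.29) and TP53I3 (1.26) were the others past 2-fold. SESN2, GADD45A and TNFRSF10B are also known targets of ATF4, DDIT3 or both.

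The p53 feedback gene MDM2 and the pore-forming BAX did not pass the test. MDM2 was at 121, 159.6 and 128 CPM untreated and at 154, 129.7 and 135 CPM after etoposide (0.03, FDR 0.869), and the libraries of the groups were interleaved. BAX was at 89.6, 101 and 101 CPM and 85.3, 112 and 78.1 CPM (-0.08, FDR 0.692). The nucleotide excision repair genes XPC (-0.20) and DDB2 (0.17), the phosphatase PPM1D (0.01), FDXR (0.03) and ZMAT3 (-0.08) did not pass either. CDKN2A, which encodes p16 and ARF, had no read.

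Both targets of the drug fell. TOP2B, the isoform expressed throughout the cell cycle, was at 384, 356 and 357 CPM untreated and 235, 160.0 and 225 CPM after etoposide (-0.82, SE 0.14, FDR 0.000193). TOP2A, the isoform of dividing cells, was at 726, 636 and 701 CPM and 524, 360.5 and 540.1 CPM (-0.53, SE 0.14, FDR 0.0076). For both, etoposide replicate 2 was the lowest library and the groups did not overlap. Among 13 topoisomerase and cleavage-complex repair genes, 6 fell and 1 rose, beside 16.0% and 16.1% of all genes tested. The number that fell dropped to 3 without untreated replicate 1. The 1 rise, that of the nuclease cofactor RBBP8 (0.42), failed the FDR without any 1 library other than etoposide replicate 2. TOP1 did not pass the test (-0.03).

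Genes of double-strand break repair and its checkpoint showed no common direction, with 3 of 27 rising and 3 falling. Among all genes tested, 16.1% rose and 16.0% fell. The list median was -0.12. ATM, the apical kinase, fell (-0.82), and the nuclease EXO1 rose (0.61). BRCA1 (-0.02) and CHEK1 (0.09) did not pass. Without etoposide replicate 2, 7 members rose and 4 fell, beside 23.1% and 21.8% of all genes. Without untreated replicate 2, 1 rose and 1 fell, and without etoposide replicate 1, 1 rose and 6 fell. Without etoposide replicate 3, 1 rose.

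Mitotic genes were lower after etoposide. Of 36 genes of G2/M and mitosis, 18 fell, 3 of them more than 2-fold, and none rose, beside 16.0% lower and 3.46% repressed among all genes tested. The median was -0.35. Many genes of this programme carry a CHR element (TTTGAA) and a CCAAT box near the start, through which the DREAM and NF-Y complexes act. TTTGAA was found in 14 of 28 members with a listed promoter, 10 of which fell, and in 860 of the 10109 promoters (8.51%). CCAAT was found in 22 of the 28, 14 of which fell, and in 3533 of all (34.9%). The kinase PLK1 (plus strand, chr16:23678786-23678888, bases 103 to 1 before the start) and the microtubule-associated HMMR (plus strand, chr5:163460425-163460631, bases 207 to 1) are shown because both motifs lie close together there, in capitals on either strand.
PLK1: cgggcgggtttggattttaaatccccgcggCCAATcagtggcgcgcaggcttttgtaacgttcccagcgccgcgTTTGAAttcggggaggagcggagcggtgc
HMMR: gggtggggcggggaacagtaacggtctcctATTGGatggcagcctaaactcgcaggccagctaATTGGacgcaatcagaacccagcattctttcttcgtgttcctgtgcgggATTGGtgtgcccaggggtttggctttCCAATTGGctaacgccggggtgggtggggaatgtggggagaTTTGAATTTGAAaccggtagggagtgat

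The kinetochore motor CENPE was at 193, 150.4 and 183 CPM untreated and 77.96, 46.3 and 65.2 CPM after etoposide (-1.47, SE 0.16, FDR 2.48e-06). Cyclin B1 (CCNB1) was at 301, 313 and 309 CPM and 201, 179.7 and 230.2 CPM (-0.60, SE 0.12). In both, the 3 etoposide libraries lay below every untreated one and replicate 2 was the lowest. CENPF (-1.44) and DLGAP5 (-1.03) were the others past 2-fold, and HMMR (-0.61) and PLK1 (-0.68) fell as well. Without etoposide replicate 2, 1 member rose. The fall was not shared by the whole programme: CDK1 (-0.06), TPX2 (0.01), AURKA (-0.07) and BIRC5 (-0.05), which encodes survivin, did not pass.

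DNA replication genes stayed near their untreated level. Of 36 members, 6 rose, near the 16.1% of all genes tested, and 2 fell, beside 16.0%. The list median was 0.15. The members that rose include GINS4 of the replicative helicase (0.87), the origin binding subunit ORC1 (0.68), POLA2 of the primase complex (0.59) and the loading factor CDC6 (0.46). None of the helicase subunits MCM2 to MCM7 passed the test, with values from 0.00 to 0.24. The number that rose was 18 of the 36 without etoposide replicate 2, beside 23.1% of all genes. The 2 that fell no longer did so without untreated replicate 2, untreated replicate 3 or etoposide replicate 3, and 1 did without untreated replicate 1 or etoposide replicate 1.

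In the group of G1/S genes, CDKN1A and the transcription factor E2F2 (1.06) rose beyond 2-fold, whereas the inhibitors CDKN1B (-0.63) and CDKN2C (-0.67) fell. Of 21 members, 3 rose and 4 fell, shares near the 16.1% and 16.0% of all genes. Without etoposide replicate 2, 8 rose, beside 23.1% of all genes, and without untreated replicate 1, 2 fell.

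MYC, the growth-promoting transcription factor, was at 151, 158 and 169 CPM untreated and 69.5, 99.1 and 73.8 CPM after etoposide (-0.98, SE 0.14, FDR 3.51e-05). Its antagonist MXD1 rose (2.11). Each etoposide library was below every untreated one for MYC. Of 24 genes of MYC and ribosome biogenesis, 13 fell and 3 rose, among them the nucleolar proteins NCL (-0.54), NOP58 (-0.60) and GNL3 (-0.57) on the side that fell and the polymerase I factor RRN3 (0.85) on the other. Among all genes tested, 16.0% fell and 16.1% rose. The number of list members that fell was 8 without untreated replicate 1 or 2 and 17 without etoposide replicate 2. Histone genes could be tested for 17 of 28 members, of which 6 fell and 1 rose, beside 16.0% and 16.1% of all genes tested. None fell without untreated replicate 2. Without untreated replicate 3, 2 fell, without etoposide replicate 1 or 3, 3 fell, and without etoposide replicate 2, 9 fell and 2 rose. Replication-dependent histone messages lack a poly(A) tail and their copies resemble each other, so these values are uncertain.

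Genes of cell death changed at both ends. BCL2, the anti-apoptotic guard, was at 248, 229.6 and 235 CPM untreated and 124, 111 and 114 CPM after etoposide (-1.03, SE 0.12, FDR 2.79e-06), with no overlap. Its relative BCL2A1, a target of NF-kB, was at 1.83, 1.39 and 1.35 CPM and 8.18, 6.01 and 9.57 CPM (2.38, SE 0.23, FDR 4.04e-07). Of the BCL2 family, 6 of 15 members rose and 1 fell, beside 16.1% and 16.0% of all genes tested. The others that rose were BOK (1.27), BMF (0.87), BBC3 (0.77), PMAIP1 (0.75) and BAK1 (0.54), all of which promote death. MCL1 (0.10) and BCL2L1 (0.27) did not pass, and without etoposide replicate 2 a second member fell. Among 22 death receptors, caspases and inhibitors of apoptosis, 8 rose, beside 16.1% of all genes tested. They were led by TNFRSF10B, with TNFRSF10D (0.94) and FAS (0.91) among the others. The number that rose was 13 without etoposide replicate 2 and 5 without untreated replicate 3.

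Inflammatory genes rose. Of 37 NF-kB targets and cytokines, 26 were expressed well enough to be tested and 11 were not, among them IL6 and TNF. Of these 26, 18 rose, 15 of them beyond 2-fold, and none fell, beside 16.1%, 6.38% and 16.0% of all genes tested. The list median was 1.14. A kappa B motif, searched as GGGNNTTTCC on both strands, was found in 7 of 21 members with a listed promoter, 4 of which rose, and in 197 of the 10109 promoters (1.95%). The neighbouring chemokine genes CXCL1 (plus strand, chr4:73869284-73869353, bases 109 to 40 before the start) and CXCL2 (minus strand, chr4:74099234-74099303, bases 108 to 39) are shown since they share the motif and much of the sequence around it. Such like genes may also share reads.
CXCL1: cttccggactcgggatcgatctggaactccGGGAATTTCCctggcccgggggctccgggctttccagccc
CXCL2: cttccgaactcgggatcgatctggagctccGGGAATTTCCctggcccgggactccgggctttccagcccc

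CXCL1 rose by 1.33 and CXCL2 by 1.53 on the log2 scale. CXCL8, the neutrophil attractant interleukin 8, was at 8.17, 13.96 and 8.77 CPM untreated and 132, 77.1 and 134 CPM after etoposide (3.47, SE 0.22, FDR 2.52e-09). IL1B, the inflammasome substrate, was at 2.095, 2.37 and 1.76 CPM and 12.9, 10.9 and 13.6 CPM (2.58, SE 0.19). In CXCL8 the etoposide replicate 2 was the lowest of the treated libraries, and neither gene overlapped between the groups. The cytokine subunit IL23A (3.22), the chemokines CCL2 (1.56), CCL5 (1.49) and CXCL10 (1.39), the surface protein CD83 (1.53) and the alternative pathway subunits RELB (1.58) and NFKB2 (0.97) rose too. The canonical subunit RELA (-0.01) and the inhibitor NFKBIA (0.23) did not pass. Among 13 inflammasome genes none fell, beside 16.0% of all genes tested, or 2 without etoposide replicate 2. In this list 7 rose, 5 of them beyond 2-fold, beside 16.1% and 6.38% of all genes. They include the sensors NLRP1 (2.60) and NLRC4 (1.78), the ATP receptor P2RX7 (1.998) and the membrane-rupture protein NINJ1 (1.18), whereas NLRP3 (-0.02) and GSDMD (-0.12) did not pass.

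Interferon-stimulated genes rose in larger number still. Of 39 members 36 were tested, 29 rose, 22 of them beyond 2-fold, and 1 fell, beside 16.1%, 6.38% and 16.0% of all genes tested. The list median was 1.23. The type I interferon gene IFNB1 had too few reads to be tested. The interferon-stimulated response element, searched as GAAANNGAAA on both strands, was found in 15 of 26 members with a listed promoter, 12 of which rose, and in 244 of the 10109 promoters (2.41%). ISG15 (plus strand, chr1:1013354-1013429, bases 143 to 68 before the start) and IFIT1 (plus strand, chr10:89392477-89392559, bases 146 to 64) are shown as classical carriers, each with 2 matches in capitals, which overlap in ISG15 and lie on the other strand in IFIT1.
ISG15: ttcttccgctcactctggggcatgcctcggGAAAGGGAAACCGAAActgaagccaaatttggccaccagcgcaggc
IFIT1: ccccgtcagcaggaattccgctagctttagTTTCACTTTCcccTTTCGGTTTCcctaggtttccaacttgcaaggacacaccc

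ISG15, a ubiquitin-like modifier, was at 11.6, 16.5 and 15.2 CPM untreated and 26.01, 45.9 and 36.2 CPM after etoposide (1.32, SE 0.19, FDR 3.71e-05). IFIT1, which binds foreign RNA, was at 6.29, 9.89 and 7.16 CPM and 20.8, 15.9 and 21.1 CPM (1.31, SE 0.18, FDR 2.43e-05). Their groups were apart by less than those of the antiviral GTPase MX1 and the RNA sensor OAS2. MX1 went from 8.96, 8.399 and 8.82 CPM to 33.6, 38.1 and 31.6 CPM (1.98, SE 0.14, FDR 1.01e-08). OAS2 went from 30.8, 28.9 and 27.9 CPM to 91.2, 90.7 and 95.8 CPM (1.67, SE 0.12, FDR 1.53e-08). SLFN5 (2.19), IFI44L (2.01), EPSTI1 (1.95) and OASL (1.94) were also among the largest changes, and the factors IRF7 (1.46) and IRF1 (1.30) rose.

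The 1 member that fell was STING1, the adaptor that carries the signal of the DNA sensor cGAS. STING1 was at 500.5, 494 and 497 CPM untreated and 227, 316 and 229 CPM after etoposide (-0.95, SE 0.13, FDR 3.16e-05), the 3 untreated libraries being within a few CPM of each other and above all treated ones. The RNA sensors RIGI (0.28) and IFIH1 (0.01), DDX60 (0.03) and the replication blocker SLFN11 (0.18) did not pass. The count of members that rose was between 27 and 35 with 1 library left out.

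Monocyte and macrophage genes rose in their majority. Of 37 members 34 were tested, 21 rose, 13 beyond 2-fold, and 1 fell (0 without untreated replicate 2 and 2 without etoposide replicate 2). Among all genes tested, 16.1% rose, 6.38% beyond 2-fold, and 16.0% fell. The list median was 0.83. CD14, the co-receptor for bacterial lipopolysaccharide, was at 6.23, 8.09 and 7.99 CPM untreated and 39.4, 52.1 and 42.5 CPM after etoposide (2.58, SE 0.16, FDR 1.77e-09). S100A9, a subunit of calprotectin, was at 27.3, 37.8 and 34.6 CPM and 126, 148 and 188 CPM (2.21, SE 0.16). TREM1, an amplifier of inflammation, was at 0.629, 0.464 and 0.467 CPM and 7.92, 7.93 and 7.92 CPM (3.92, SE 0.23). All etoposide libraries of these 3 genes were above all untreated ones, and those of TREM1 hardly differed from each other. The integrin chain ITGAM (1.60), osteopontin (SPP1, 1.58), the partner subunit S100A8 (1.21) and lysozyme (LYZ, 0.85) rose as well, but the receptor CSF1R (0.10) and CD33 (-0.09) did not pass.

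Among 19 myeloid transcription factors, 7 rose and 5 fell, beside 16.1% and 16.0% of all genes tested. CEBPB (1.75), CEBPE (1.59), KLF6 (1.04) and KLF4 (0.79), which act in maturing myeloid cells, were on the rising side. MYB (-0.82), which maintains leukaemic blasts, and IRF8 (-0.66) were on the falling side. Without untreated replicate 1 or 2, 2 fell, and 3 fell without untreated replicate 3. SPI1, the master regulator PU.1, did not pass (0.13). Of 14 genes of the HOXA cluster and the KMT2A-fusion programme none rose and 4 fell, beside 16.1% and 16.0% of all genes tested. HOXA13 (-0.67) was among those that fell. The number that fell was 1 without untreated replicate 2 or etoposide replicate 3 and 2 without untreated replicate 1 or 3. HOXA9 (0.05), MEF2C (-0.04) and the genes joined in the fusion, KMT2A (-0.09) and MLLT3 (0.06), did not pass. Counts per gene do not separate reads of the fusion from those of the unfused copies.

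Genes of antigen presentation rose in part. Of 7 MHC class II genes tested, 6 rose, with HLA-DRA at 1.68 and the master activator CIITA at 1.44 among them, although HLA-DRA and HLA-DPA1 (2.10) were lowly expressed and HLA genes are alike in sequence. Of 14 MHC class I genes, 2 rose, near the 16.1% of all genes, and none fell, or 1 without etoposide replicate 2. The number that rose was 0 without untreated replicate 1, 1 without untreated replicate 2 or 3, 7 without etoposide replicate 1 and 6 without etoposide replicate 2. A difference between the classes was not tested. Lysosomal genes rose in 15 of 28 cases, 3 beyond 2-fold, beside 16.1% and 6.38% of all genes tested. None of the 28 fell, beside 16.0% of all genes, or 1 without etoposide replicate 2. The cathepsins CTSL (0.84), CTSD (0.81) and CTSB (0.80), the sphingolipid activator PSAP (0.84), the autophagy receptor SQSTM1 (1.03) and the lysosomal master regulator TFEB (0.65) were in this group.

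Of 24 early response genes tested, 12 rose and 2 fell, beside 16.1% and 16.0% of all genes tested. JUN, the main AP-1 subunit, was at 10.8, 11.9 and 16.1 CPM untreated and 109.7, 136 and 110.3 CPM after etoposide (3.19, SE 0.16, FDR 1.95e-10), with no overlap. JUND (1.22), the MAP kinase phosphatases DUSP5 (1.85) and DUSP1 (1.79), BTG1 (1.86) and the nuclear receptor NR4A1 (1.64) rose. FOS (0.09) and JUNB (0.20) did not pass. The 2 members that fell were FOSB (-1.57) and NR4A2 (-0.75), a relative of NR4A1, and 1 fell without untreated replicate 1 or etoposide replicate 3. Of 15 NRF2 targets and metallothioneins, 5 rose and 1 fell, beside 16.1% and 16.0% of all genes tested. The haem oxygenase HMOX1 (2.70), ferritin heavy chain FTH1 (0.83) and NQO1 (0.74) were on one side and MT1G (-0.64) on the other. HMOX1 was at 4.98, 5.92 and 6.44 CPM untreated and 40.7, 37.4 and 34.5 CPM after etoposide. The glutathione synthesis genes GCLC (0.11) and GCLM (0.23) did not pass. Without etoposide replicate 2, 8 rose and 4 fell, beside 23.1% and 21.8% of all genes.

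Sterol synthesis was the list with the lowest median, -0.68. Of 26 members tested, 20 fell, 8 of them beyond 2-fold, and 1 rose, beside 16.0%, 3.46% and 16.1% of all genes tested. HMGCS1, which makes the precursor HMG-CoA, was at 228, 263 and 241 CPM untreated and 117, 95.4 and 122 CPM after etoposide (-1.13, SE 0.13). SQLE, the squalene epoxidase, was at 209.6, 247 and 216 CPM and 120.2, 105 and 123 CPM (-0.95, SE 0.12, FDR 1.26e-05). Both were lower in each etoposide library than in any untreated one. LSS (-1.16), MVK (-1.27) and the controlling factors SREBF1 (-1.25) and SREBF2 (-0.58) fell. The efflux pump ABCA1, which sterol excess induces in other settings, fell (-1.57), whereas its relative ABCG1 had 2 reads in all untreated libraries together and 61 in the etoposide libraries, and rose. The SREBP motif TCACNCCAC was found before the start of 1 of 20 members, SREBF2, and in 89 of the 10109 promoters (0.88%).

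Secreted factors and proteases rose in 15 of 20 cases, 9 beyond 2-fold, beside 16.1% and 6.38% of all genes tested. SERPINB2 was the 1 member that fell, beside 16.0% of all genes, or 1 of 2 without etoposide replicate 2. VEGFA, the growth factor of blood vessels and a known target of ATF4, was at 11.7, 14.8 and 12.9 CPM untreated and 111, 128 and 118 CPM after etoposide (3.18, SE 0.14, FDR 5.33e-11), far apart in all libraries. Thrombospondin 1 (THBS1, 2.495), fibronectin (FN1, 2.13), HBEGF (1.86) and urokinase (PLAU, 1.13) rose.

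Among drug transporters, ABCB1, which encodes the efflux pump P-glycoprotein that exports etoposide, was nearly silent in untreated cells. ABCB1 was at 0.157, 0.206 and 0.363 CPM untreated and 8.63, 7.98 and 10.4 CPM after etoposide (5.18, SE 0.29, FDR 5.08e-10), so each treated library was far above each untreated one. ABCC3 (1.98) and ABCC1 (0.72) rose, and ABCC2 (-1.31) fell. Of 13 growth factor receptors and ABC transporters tested, 5 rose and 3 fell, beside 16.1% and 16.0% of all genes tested.

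Of 16 genes that the study singled out in its own account of these cell lines, 5 rose and 4 fell in THP-1. Among all genes tested, 16.1% rose and 16.0% fell. The choice of these 16 genes was made on the same data and is not independent evidence. PARP9, a mono-ADP-ribosyltransferase of the interferon response, was at 22.2, 22.7 and 21.1 CPM untreated and 49.7, 39.7 and 51.2 CPM after etoposide (1.09, SE 0.14). PRKCH, a protein kinase C, was at 5.29, 4.95 and 6.02 CPM and 10.1, 8.72 and 10.96 CPM (0.87, SE 0.17). IGF1R was at 3.93, 2.47 and 2.803 CPM and 1.51, 1.33 and 1.39 CPM (SE 0.24 of its log2 fold change), with untreated replicate 1 above the other untreated libraries. NOTCH1 (0.29), HDAC1 (0.18), SIRT1 (0.07), MTOR (0.12) and ROCK1 (-0.34) did not pass. None of the 13 mitochondrially encoded genes passed the test, or 1 without etoposide replicate 1, and they had a median of 0.10.

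Non-coding genes made up much of the repressed set. Among the most abundant called long non-coding genes, DLEU2 (-1.16), the host of miR-15a and miR-16-1, MIR1915HG (-1.19), MIR9-3HG (-1.25), the snoRNA host SNHG3 (-1.32) and MIR142HG (-1.46), the host of the blood-cell miR-142, fell. LINC00662 (1.30), MSC-AS1 (1.28), CIDECP1 (1.22), LINC00888 (1.202) and FCGR1BP (1.03) rose. CIDECP1 and FCGR1BP are pseudogenes, whose reads may belong to their parent genes. Among 10005 coding genes of at least 5 CPM, the median log2 fold change was -0.0366 in genes spanning under 10 kb and -0.0536 in those over 300 kb.

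**Figure D4:**
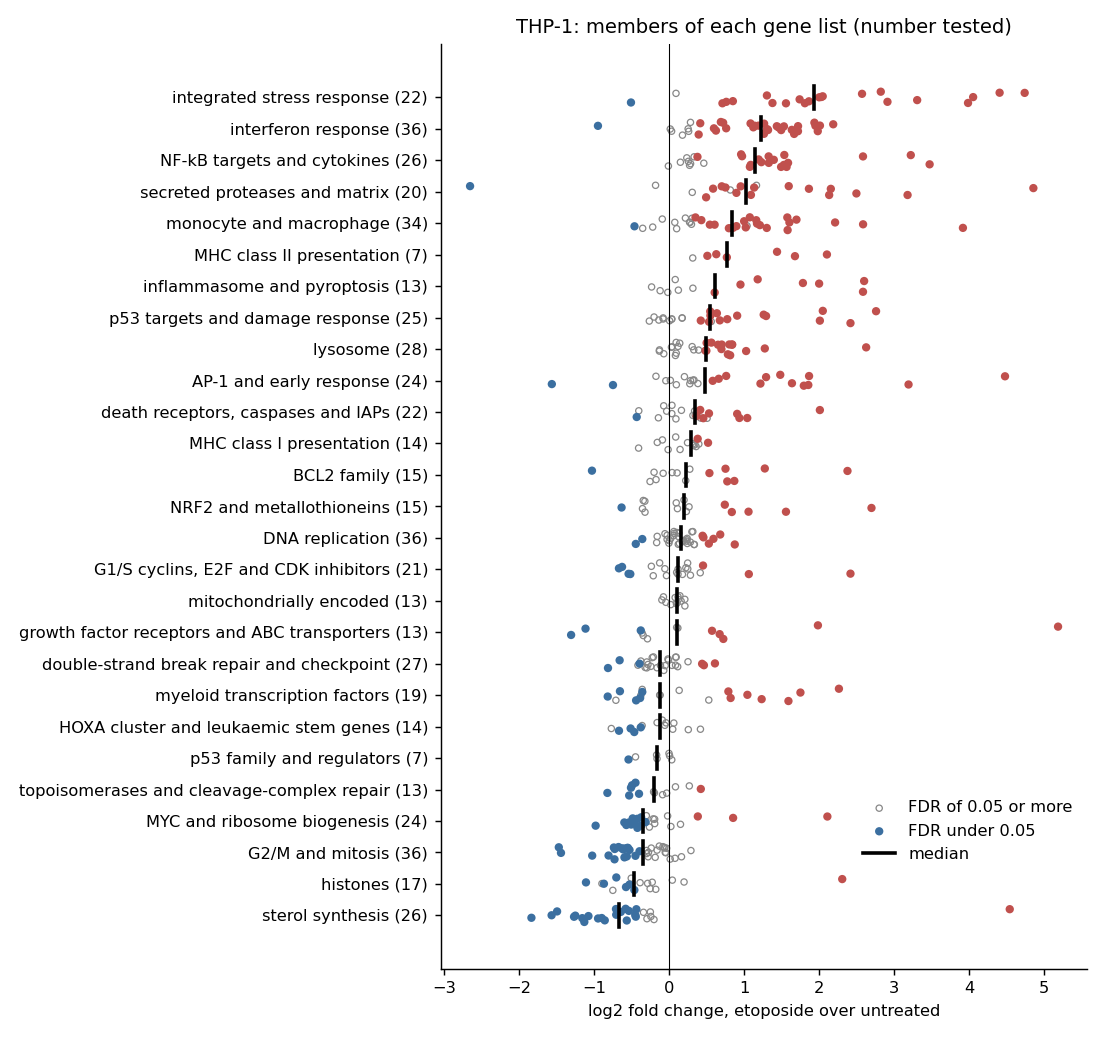
Each row is 1 of 27 gene lists with the number of members tested, each point is the log2 fold change of 1 member in THP-1 on the horizontal axis, filled in red (higher) or blue (lower) where the FDR is below 0.05 and open otherwise, and black bars are medians. The integrated stress response has the highest median (1.93) and sterol synthesis the lowest (-0.68), where the outlying red point is ABCG1 with 2 untreated reads.

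To learn where THP-1 differed, its response was set against those of MOLM-13, MONO-MAC-6 and NOMO-1, the other lines of the series known as monocytic AML with the same fusion. Each of these lines has 3 untreated and 3 etoposide libraries, treated for 24 hours at its own IC50, so the concentrations differ. The difference of log2 fold changes was tested for 17533 genes with the quasi-likelihood test of edgeR in 1 fit of 24 libraries, and the 3 comparisons share the THP-1 libraries. At an FDR below 0.05 and a difference beyond 1, the response of THP-1 was higher than that of MOLM-13 for 689 genes (3.93%) and lower for 1187 (6.77%). Against MONO-MAC-6 it was higher for 668 (3.81%) and lower for 707 (4.03%), and against NOMO-1 higher for 591 (3.37%) and lower for 457 (2.61%). Below, shares of all genes refer to these differences between lines. For members that rose or fell within a comparator line, the share of all genes in that line is not given here.

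Genes of the integrated stress response rose in THP-1 and mostly fell in MOLM-13. At an FDR below 0.05, the response of THP-1 was higher in 20 of 22 members and lower in 1, beside 15.1% and 15.7% of all genes tested. In MOLM-13 itself 3 members rose and 13 fell, with a median of -0.51 against 1.98 in THP-1 in the same fit. TRIB3 in MOLM-13 was at 65.05, 73.4 and 88.2 CPM untreated and 30.9, 36.8 and 35.3 CPM after etoposide, a fall (-1.14) that differed from the rise in THP-1 (4.10) by 5.23 (SE 0.21, FDR 1.21e-16). ASNS was at 69.04, 74.7 and 82.8 CPM untreated and 35.05, 29.9 and 30.1 CPM after etoposide in MOLM-13, a difference of 3.35 (SE 0.13, FDR 3.44e-17). Both genes were lower in every treated than in every untreated library of MOLM-13.

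Against MONO-MAC-6, whose list median was 0.55, THP-1 was higher in 19 members and lower in none, beside 13.6% and 10.8% of all genes. Against NOMO-1, whose median was 1.32, it was higher in 10 and lower in 1, beside 12.3% and 9.86%. GDF15, which rose in each of these lines, did not differ past the FDR from MOLM-13 (-0.28, SE 0.76, FDR 0.86), MONO-MAC-6 (FDR 0.259) or NOMO-1 (FDR 0.292), though the SE leaves room for large differences.

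The p53 targets went the other way. The response of THP-1 was lower than that of MOLM-13 in 17 of 25 targets and higher in 2, beside 15.7% and 15.1% of all genes. In MOLM-13 24 rose, with a median of 1.16 against 0.59 in THP-1. MDM2 in MOLM-13 was at 139.8, 141 and 135 CPM untreated and 567, 488 and 471 CPM after etoposide, and its difference was -1.798 (SE 0.15, FDR 2.44e-10). FDXR (-1.82), ZMAT3 (-2.12), XPC (-1.32) and BAX (-0.78) differed in the same direction. CDKN1A rose in both lines, by 2.46 in THP-1 and 3.08 in MOLM-13, with a smaller difference (-0.62, SE 0.16, FDR 0.00333). The 2 targets with the higher response in THP-1 were SESN2 (2.001) and TNFRSF10B (0.99), and GADD45A did not differ past the FDR (0.21, SE 0.17). Against MONO-MAC-6 the response of THP-1 was lower in 6 targets and higher in 4, beside 10.8% and 13.6% of all genes. Against NOMO-1 it was lower in 6 and higher in 3, beside 9.86% and 12.3%.

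Replication genes separated the lines in both directions. In MOLM-13 35 of 36 fell (median -0.92), and the response of THP-1 was higher in 34 and lower in none. Among all genes the shares with such a difference were 15.1% and 15.7%. In MONO-MAC-6 30 rose (median 0.48) and in NOMO-1 28 (median 0.45). Over the 36 members, THP-1 was lower in 17 and higher in 1 against MONO-MAC-6, beside 10.8% and 13.6% of all genes. Against NOMO-1 it was lower in 14 and higher in none, beside 9.86% and 12.3%. Mitotic genes followed suit: all 36 fell in MOLM-13, where THP-1 was higher in 28 and lower in none. THP-1 was lower in 25 and higher in none against MONO-MAC-6, and lower in 15 and higher in 3 against NOMO-1. CENPE, with log2 fold changes of -0.16 in MONO-MAC-6 and 0.02 in NOMO-1 that did not pass the FDR, differed by -1.26 and -1.44. The fall of MYC in THP-1 (-0.94) was smaller than in MONO-MAC-6 (-2.66, FDR of the difference 8.09e-09) and NOMO-1 (-1.70, FDR 0.00118), and it did not differ past the FDR from that in MOLM-13 (-0.60, FDR 0.121).

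The inflammatory lists varied less evenly. For 37 interferon genes the response of THP-1 was higher in 15 and lower in 2 against MOLM-13, 4 and 8 against MONO-MAC-6, and 13 and 3 against NOMO-1. For 35 NF-kB targets these numbers were 8 and 1, 2 and 11, and 2 and 9. Only 26 NF-kB targets were expressed well enough to be tested in THP-1 alone, so the 35 include members of low level in THP-1. Among all genes tested, 15.1% were higher and 15.7% lower against MOLM-13. The shares were 13.6% and 10.8% against MONO-MAC-6, and 12.3% and 9.86% against NOMO-1. Sterol genes fell in each line, in 20, 23 and 20 of 26 members in MOLM-13, MONO-MAC-6 and NOMO-1. BCL2A1 rose more in THP-1 than in MONO-MAC-6, by a difference of 1.15 (FDR 0.00194), and than in NOMO-1, by 1.16 (FDR 0.00169). Its mean level went from 1.536 to 8.235 CPM in THP-1 and from 15.92 to 38.2 CPM in NOMO-1. Treated THP-1 thus stayed below untreated NOMO-1.

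**Figure D5:**
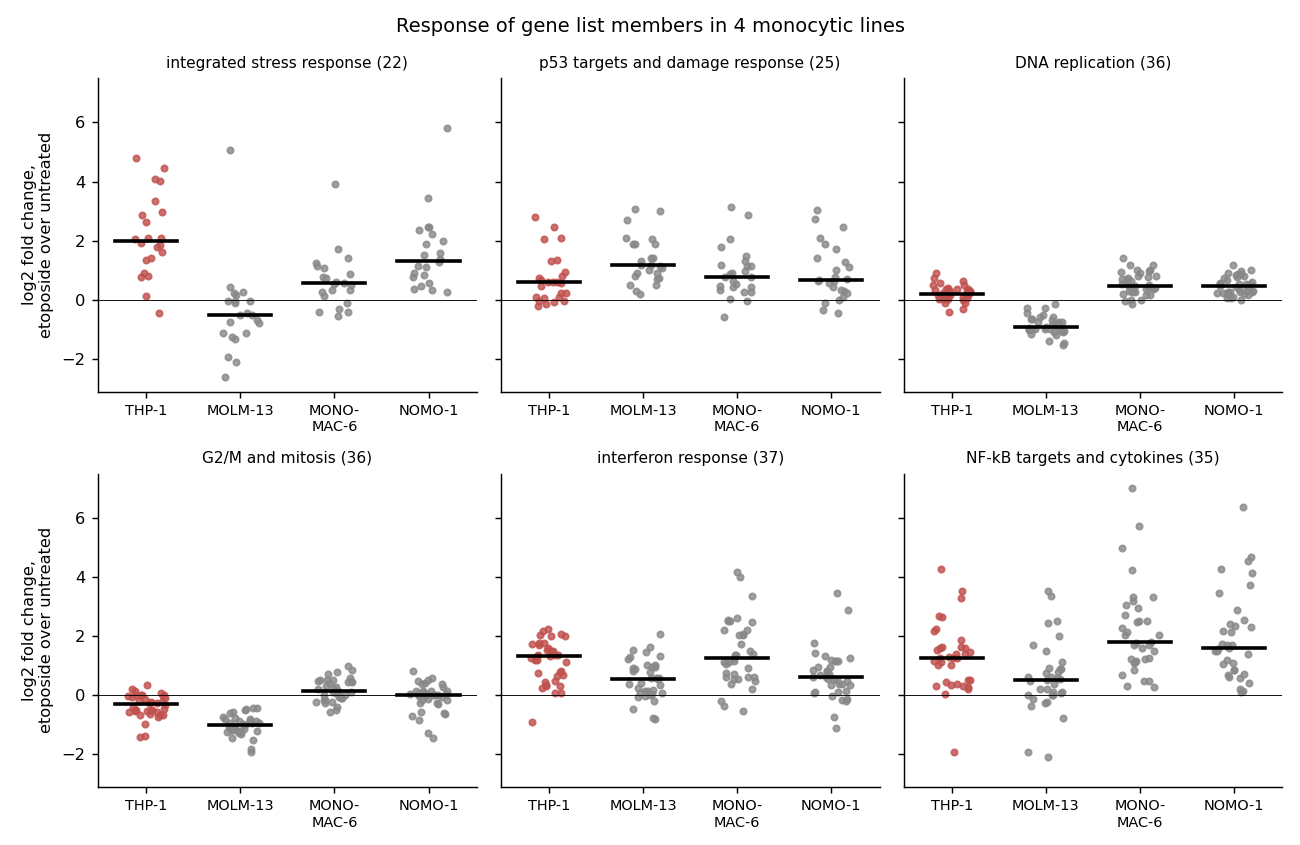
Each panel is 1 gene list with its number of members, each point the log2 fold change of 1 member (vertical axis) in THP-1 (red), MOLM-13, MONO-MAC-6 or NOMO-1 (grey), and black bars are medians. In the stress panel the median is 1.98 in THP-1 and -0.51 in MOLM-13, and in the p53 panel it is 0.59 and 1.16.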

How the data were processed

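RNA of THP-1 and of 3 comparator lines was measured by sequencing in 24 libraries, 3 per group, and groups came from the sample labels. According to the methods, a stranded kit for mRNA was used, reads were checked with FastQC 0.11.5 and mapped with STAR 2.5.3a to GRCh38.p7 with gencode release 25. The authors deposited whole-number counts of reads per gene, 1 column per library and not normalized, and they called differential expression with edgeR 3.20.1. Which of the count columns of STAR was deposited is not given in the sources used here. Reads were found on 241 of 358 genes lying wholly inside a coding exon of the opposite strand with at least 1000 reads, so the counts are by strand.

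Of 58037 identifiers, 45 chromosome Y copies without a read were left out, and 56948 of the other 57992 were named from gencode release 44. In R 4.3.3 with edgeR 4.0.16, the 6 THP-1 libraries were filtered with filterByExpr (minimum count 10, minimum total 15), normalized by TMM and compared by its quasi-likelihood F test, with FDR values after Benjamini and Hochberg. The biological coefficient of variation was 0.123. Standard errors were taken from the fold change and the F statistic. The responses of the 4 lines were compared by an interaction contrast in 1 fit of 24 libraries. Replicates differed beyond counting noise, with chi-square values of 5.66 or more for each degree of freedom in THP-1, so none was counted as a repeat. On counts simulated for THP-1 with 200 of 14789 genes changed 4-fold, 200 were recovered with 0 false calls, and for the difference from MOLM-13 200 of 200 with 3 false calls among 17533. The changed genes were drawn from well expressed genes, all genes had the same spread, and no library deviated by GC content. The simulation therefore checks the code and cannot show the error rate for genes of low expression or smaller changes.

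The gene lists and the genes named were chosen with earlier results of these data known. Named were the 15 largest inductions and repressions among called coding genes of at least 5 CPM, list members by size of change or role, the drug targets, CDKN1A, MDM2, the genes the study names, the 5 largest differences in each direction from each comparator line and the 5 most abundant non-coding genes called in each direction. Y-linked genes and XIST were left out, and some other genes that this rule names are not reported here. Promoters and their sequences (250 bases before the start, GRCh38.p14) are those of RefSeq, matched by symbol to 10109 tested coding genes. Alternatives were other filters, RLE normalization or library size alone, the exact test, DESeq2 1.42.0, glmTreat, a replicate block, no fold minimum, 1 fit of all 24 libraries or of the 12 of both lines, and each library left out. Tables and plots were made in Python 3.11.15 with pandas 2.3.3, numpy 2.4.6 and matplotlib 3.10.9.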

Additional observations from a re-analysis of the deposited data

Results flagged for a closer look

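The response to etoposide differed between THP-1 and another line, by the interaction test of edgeR at an FDR below 0.05 and a difference beyond 1 on the log2 scale, for 1876 genes against MOLM-13, 1375 against MONO-MAC-6 and 1048 against NOMO-1. All differences below are log2 fold changes of THP-1 minus those of the other line, each at its own IC50. The test for an outlying value in a group was not run, since it needs groups of at least 4 libraries.

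Against MOLM-13, the largest differences toward a higher response in THP-1 among coding genes of at least 5 CPM were those of CHAC1 (5.97), KLHDC7B (5.58), TRIB3 (5.23) and ADM2 (5.16). Of the stress genes, ATF3 (3.99), ASNS (3.35) and DDIT3 (2.40) were also higher, as was the p53 and ATF4 target SESN2 (2.001). The largest toward a lower response were those of the cadherin FAT1 (-4.07), the cytidine deaminase APOBEC3H (-3.58), the potassium channel KCNMA1 (-3.19) and the histone H2BC12 (-3.16). In THP-1, mean levels were low for APOBEC3H (0.593 to 0.698 CPM), KCNMA1 (0.366 to 0.175 CPM) and H2BC12 (1.78 to 0.849 CPM). The uncertainty of histone messages given above applies to H2BC12. Of the p53 targets, ZMAT3 (-2.12), TP53INP1 (-2.09), FDXR (-1.82), MDM2 (-1.798), TP53I3 (-1.71), XPC (-1.32), BAX (-0.783) and CDKN1A (-0.616) responded less in THP-1. EOMES and TMEM119 also passed but had 1 read over the etoposide or untreated libraries of MOLM-13, so no fold is given. EOMES went from 2.03 to 34.8 CPM in THP-1, and TMEM119 from 19.6 to 11.9 CPM.

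Against MONO-MAC-6, KLHDC7B (4.90), STC2 (4.55), the collagen-processing PCOLCE2 (4.34) and ANKRD22 (4.22) responded more in THP-1, and MYC fell less (1.72). ANKRD22 went from 0.0696 to 1.63 CPM in THP-1, so its fold rests on an untreated level near the floor. SERPINB2 (-5.30), the complement component C3 (-4.32) and the protease MMP9 (-3.78) responded less. The mean of MMP9 in THP-1 was low, at 0.525 CPM untreated and 0.949 CPM after etoposide. SERPINB2 fell in THP-1 (-2.61) and rose in MONO-MAC-6 (2.69). ATP8A2, TFPI2 and TWIST1 had at most 3 reads in a group, at 94.7 to 57.9 CPM (ATP8A2) and 1.16 to 67.1 CPM (TFPI2) in MONO-MAC-6 and 45.6 to 31.8 CPM (TWIST1) in THP-1.

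Against NOMO-1, the acute-phase gene ORM1 (4.97), the glycine transporter SLC6A9 (3.99), IGFBP3 (3.99) and S100P (3.95) responded more in THP-1, and MYC fell less (0.759). ORM1 went from 0.0869 to 7.01 CPM in THP-1 and from 11.03 to 26.45 CPM in NOMO-1. Its fold in THP-1 thus rests on an untreated level near the floor. BIRC3 (-3.96), an NF-kB target that inhibits apoptosis, and the autophagy receptor OPTN (-3.34) responded less. In NOMO-1, IGFBP3 went from 0.16 to 0.302 CPM and OPTN from 0.359 to 6.84 CPM. The differences of both genes thus rest on low untreated levels in NOMO-1. RASD2, MPZL2 and PTGDR2 had at most 3 reads in a THP-1 group.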

How the results depend on the processing

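With 943 induced and 511 repressed genes as reported, a mean of at least 5 CPM left 380 and 137, the test against a 2-fold change (glmTreat) 330 and 60, and no fold minimum 2379 and 2367. The other alternatives stayed within 1.5 times, from 920 to 1216 induced and 433 to 671 repressed. With 1 library left out, 945 to 1024 genes were induced and 443 to 660 repressed. The 1876, 1375 and 1048 genes that differed from MOLM-13, MONO-MAC-6 and NOMO-1 became 993, 749 and 554 at a mean of at least 5 CPM, where fewer genes were tested, and 1761 to 2043, 1268 to 1449 and 837 to 1256 with 1 library left out. Replicate numbers did not pair the THP-1 libraries (correlations of same-numbered deviations 0.291, -0.087 and -0.272). A replicate block gave 950 induced, 543 repressed and 1841, 1348 and 1004 differing genes. Of 354 named genes past the FDR in THP-1, none reversed under any alternative, and 261 failed glmTreat, 6 to 59 the omission of 1 library and 0 to 11 the others. Without etoposide replicate 2, 6 failed and 88 more passed. Of 2295 values for 128 differences between lines, 93 failed the FDR and 0 reversed. The median log2 fold change of all genes stayed between -0.0612 and 0.025. Depth limits genes near 1 CPM, and which library tertile of GC content set a count was not tested.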

Other observations

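Several genes usually studied in lymphoid, epithelial and stromal cells rose after etoposide. Of 8 T and NK cell markers, 2 were expressed well enough to be tested and both rose: the granule proteins GNLY, at 1.73, 1.49 and 2.803 CPM untreated and 5.51, 6.36 and 8.63 CPM after etoposide (1.77, SE 0.24, FDR 2.73e-05 by edgeR), and NKG7 (1.07). The T cell receptor chains CD3D, CD3E and CD3G were too low to be tested. Of 6 B cell markers, 4 were tested and 4 rose (2 without untreated replicate 1, untreated replicate 2 or etoposide replicate 3), with CD22 at 0.209, 0 and 0.156 CPM untreated and 0.578, 1.03 and 0.9396 CPM after etoposide (2.74), while the defining CD79A and MS4A1 were too low to be tested. Of 9 epithelial and stromal markers, 4 were tested and 4 rose, of which KRT8 (1.55), PDGFRB (1.40) and COL1A1 (1.27) stayed below 3 CPM in every library. The fourth, PECAM1, an adhesion molecule of endothelium that monocytes express too, was abundant, at 231, 219 and 233 CPM untreated and 367, 290.6 and 370.1 CPM after etoposide (0.59, SE 0.12). EPCAM, CDH1, KRT18, KRT19 and COL1A2 were too low to be tested. The summed level of the T and NK markers ran from 13.7 to 16.5 CPM untreated and from 28.4 to 42.3 CPM after etoposide, that of the B cell markers from 8.24 to 9.45 CPM and from 13.3 to 18.6 CPM, and that of the epithelial and stromal markers from 222 to 235 CPM and from 297 to 376 CPM. Of 6 granulocytic markers tested, 4 fell and 1 rose, with a median of -0.56. The azurophil granule proteins PRTN3 (-1.18), ELANE (-0.71), MPO (-0.61) and AZU1 (-0.52) fell, the antimicrobial peptide CAMP rose (1.19), and the protease CTSG did not pass (-0.02). The number that fell was 1 without untreated replicate 2 or etoposide replicate 1 and 2 without etoposide replicate 3. The source of these messages was not tested.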
